A study of Mus musculus with 26 samples.

Results

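The genes described here encode cytosolic ribosomal proteins, the protein part of the ribosome that works outside mitochondria. Members were the probes whose gene symbol in the authors' deposited tables begins with Rpl, Rplp or Rps and a number, or with Rpsa, leaving out the ribosomal protein S6 kinases, which are signalling enzymes. This rule found 34 probes of 29 genes, of 7244 probes with a gene name and 25697 probes measured. Of the genes, 17 belong to the large subunit (20 probes) and 12 to the small subunit (14 probes). They include the paralogs Rpl3l and Rps27l. Rplp0 and Fau, which also encode ribosomal proteins, carry symbols outside the rule and are given once for comparison.

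The RNA came from macrophages grown from the bone marrow of male CD1 mice, 2 months old, and expanded in 100 ng/ml of M-CSF, a growth factor for these cells. RANKL is the cytokine that drives them to become bone-resorbing osteoclasts, and Cox2 (gene Ptgs2) makes the precursor of prostaglandin E2 (PGE2). Experiment 1 covered 1 day of culture with wild-type (WT) cells in M-CSF alone (n = 4), WT cells in M-CSF and RANKL at 30 ng/ml each (n = 3), and Cox2 knockout (KO) cells in the same cytokines (n = 3). Experiment 2 covered 3 days with M-CSF and RANKL in WT cells (n = 4), the same with 0.1 µM of the Cox2 inhibitor NS398 (n = 4), in KO cells (n = 4), and in KO cells given 1 µM PGE2 (n = 4). The labels do not give the cytokine doses of experiment 2 or how much M-CSF was used without RANKL. Biotin-labelled cRNA from 350 ng of RNA was hybridised to Illumina bead arrays, 1 array per sample, and the number of arrays limits the precision. The series calls the replicates biological but does not say whether each came from its own mouse, so a p-value here covers the spread among these samples alone, which may be technical. No probe named Ptgs2 was found, so the genotype was not checked here.

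The ribosome is built from a small subunit, which decodes the mRNA, and a large subunit, which joins amino acids. Cells make the proteins of both in near equal amounts, so their genes are usually expressed together and at high levels. Most of their mRNAs begin with a C followed by a run of pyrimidines, the terminal oligopyrimidine (TOP) tract, through which mTOR signalling sets their translation. Ribosome production is known to be high in growing and dividing cells.

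Promoter sequences are shown for the members that the results turn on, because the start of transcription is where the TOP tract lies. The 60 bases below run from 40 before the annotated start of the gene, on the gene's strand, and come from RefSeq on GRCm38.p6. Capitals mark the longest run of a C followed by 6 or more C or T within 30 bases either side of the start, or the first of equally long ones, as in Rps27l. A promoter in lower case alone holds no such run in that window. The window rests on the annotated start, so the lack of a run does not show that the mRNA lacks a TOP tract. Rpl3l, Rpl13a, Rps3 and Rps24 are the genes called higher with PGE2, Rpl12 and Rps4x had the largest called rises in KO cells on day 1, and Rps27 and Rps27l are a paralog pair of which both members were measured.
Rpl3l (chr17:24727786-24727845, plus strand): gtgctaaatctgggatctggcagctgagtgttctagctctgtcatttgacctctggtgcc
Rpl13a (chr7:45128726-45128785, minus strand): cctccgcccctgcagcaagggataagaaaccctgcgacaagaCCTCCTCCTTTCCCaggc
Rps3 (chr7:99483690-99483749, minus strand): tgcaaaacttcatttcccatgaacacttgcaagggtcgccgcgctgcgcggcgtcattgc
Rps24 (chr14:24490638-24490697, plus strand): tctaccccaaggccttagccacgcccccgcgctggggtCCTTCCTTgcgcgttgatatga
Rpl12 (chr2:32961672-32961731, plus strand): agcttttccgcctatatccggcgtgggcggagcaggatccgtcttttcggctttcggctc
Rps4x (chrX:102189372-102189431, minus strand): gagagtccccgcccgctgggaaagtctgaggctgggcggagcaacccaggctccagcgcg
Rps27 (chr3:90213629-90213688, minus strand): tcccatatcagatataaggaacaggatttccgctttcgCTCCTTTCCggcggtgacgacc
Rps27l (chr9:66946046-66946105, plus strand): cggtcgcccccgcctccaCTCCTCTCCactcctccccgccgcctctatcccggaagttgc

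Of the 29 member genes 23 have an entry in the promoter table, and Rpl29, Rpl30 and Rplp1 are among those without one. The pyrimidine run was found in 11 of the 23 (47.8%), against 26.5% of all 27025 promoters in the table. Promoters of ribosomal protein genes are also known for sites of ETS factors, with the core CCGGAAG, and of YY1, with the core AAGATGGC. In the 300 bases of each promoter, searched on both strands, CCGGAAG (read CTTCCGG on the other strand) was found in 7 of 23 (30.4%) against 9.12% of all. AAGATGGC (GCCATCTT on the other strand) was found in 3 of 23 (13%) against 2.88%. Rps27l holds both the run and CCGGAAG, and Rpl13a and Rps27 hold the run and AAGATGGC. Rpl3l, a paralog of Rpl3 best known from heart and skeletal muscle, has none of them in these windows. A match describes the letters of a window and is no evidence that a factor binds there.

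The member probes were among the brightest on the arrays. In experiment 1 their mean intensities ran from 475 (Rpl3l) to 69779 (Rplp1, an acidic protein of the ribosomal stalk), with a median of 37122 against 227 over all probes, and 21 of 34 lay in the top 1% of probes. In experiment 2 they ran from 155 (Rpl29 probe A) to 46307 (Rplp1), with a median of 6969 against 148, and 12 of 34 lay in the top 1%. The highest value of any probe was 71707 in experiment 1 and 62833 in experiment 2. The brightest members on day 1 thus stood close to the top of the scale, where little room is left for a rise, and the part of this limit in the results was not tested. The 2 experiments were normalized separately, so no level is compared between days. In RNA from a whole culture, fewer cells of a type and less RNA per cell cannot be told apart.

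The cultures carried the markers of the labelled cells. Of 10 macrophage markers 8 were measured, with a summed intensity of 141152 to 164408 on day 1 and 45315 to 74769 on day 3. The sum hides opposite changes. With RANKL in WT cells on day 1, 4 of the 8 rose and 3 fell. Among them Cd14 rose from 41160 to 70999, Cd68 fell from 56706 to 24453 and Mrc1 fell from 17288 to 2859. Of 10 osteoclast markers 8 were measured, and their sum was 9857 to 11593 with M-CSF alone against 109987 to 115261 in WT and 67458 to 93738 in KO cells with RANKL on day 1. Of the 8 osteoclast markers 6 rose and 0 fell with RANKL in WT cells on day 1. The largest rise was that of Ctsk, the collagen-degrading protease of osteoclasts, from 657 to 43468 (log2 change 6.05 ± 0.12 SE, limma adjusted p = 3.6e-19).

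Gene names are carried only by probes that the authors listed as differing in at least 1 of their 5 comparison tables. Members are therefore read against the other named probes, which passed the same choice. Of the 79 standard ribosomal protein genes, 29 (Rplp0 and Fau included) had a named probe, and the other genes were not analysed here. For KO against WT on day 1 the authors' deposited table lists 21 of the 34 member probes (61.8%), 17 of them higher and 4 lower in KO, against 68.9% of all named probes. For RANKL the authors' deposited table also lists 21 (61.8%), 4 higher and 17 lower, against 73.2%. On day 3 the authors' deposited tables list none of them for KO (15.8% of named probes) or NS398 (12.8%), and 7 for PGE2 (20.6%), each higher, against 33.9%.

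**Figure D1:**
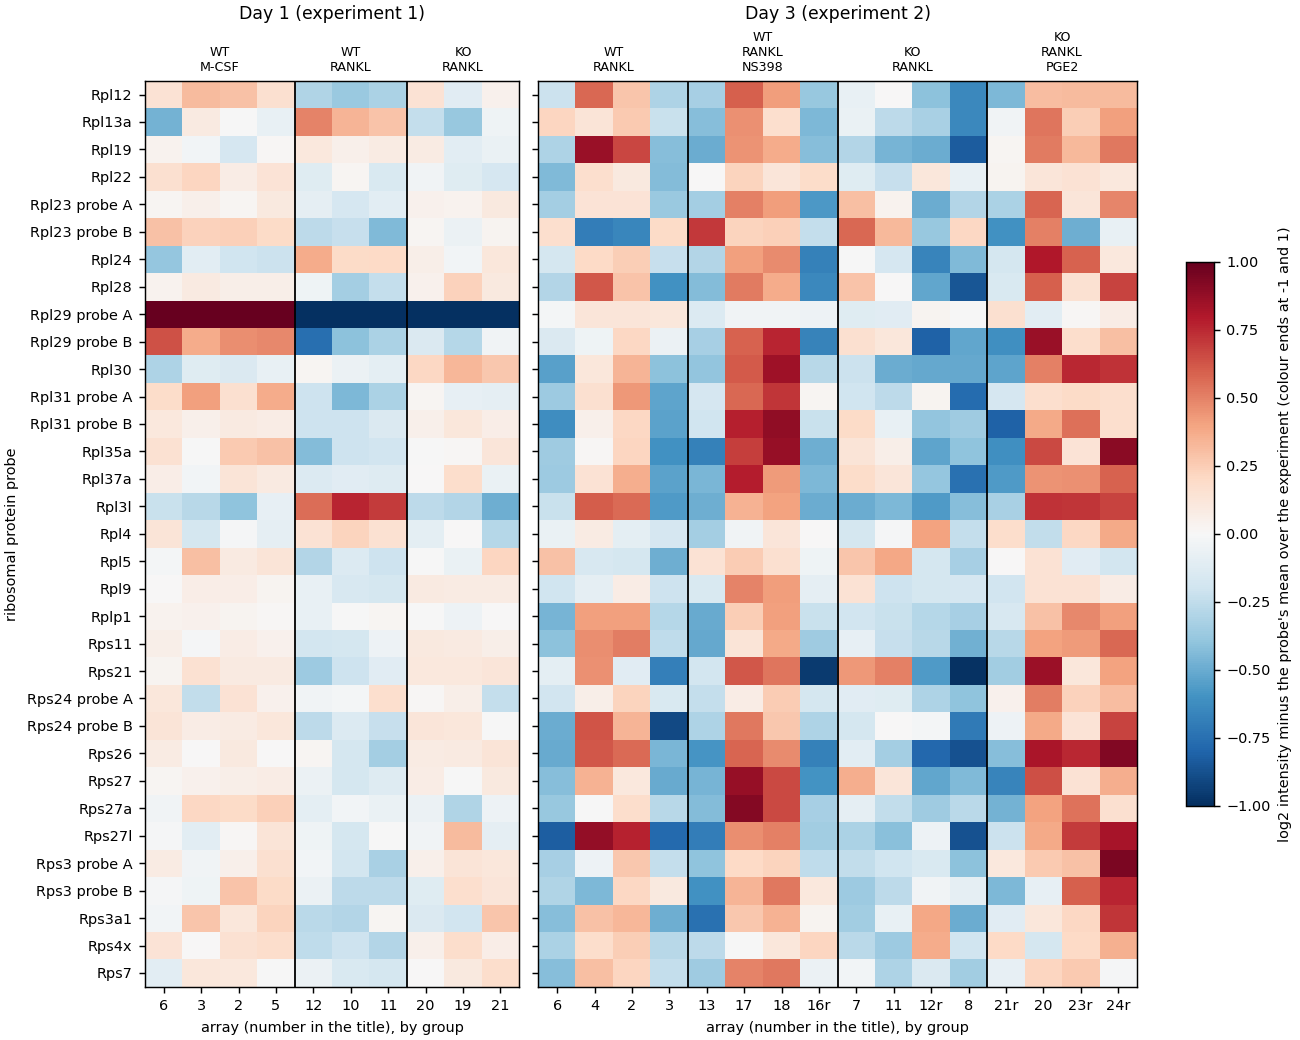
Log2 intensity of 33 of the 34 ribosomal protein probes (rows) in each array (columns, grouped by sample group), less that probe's mean over the arrays of its experiment, with colours ending at -1 and 1. On day 1 most probes were lower in the 3 WT arrays with RANKL than in the other groups, and on day 3 arrays of the same group differed.

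Before the day 3 comparisons, the spread between arrays has to be stated. Within groups on day 3 the median SD of the member probes was 0.413 on the log2 scale, against 0.197 for the other named probes and 0.139 for all probes kept. On day 1 the members had a median SD of 0.0949, against 0.117 for the other named probes. On day 3 the members moved together from array to array inside a group. Given as the median log2 distance of the 34 probes from their experiment means, NS398 arrays 17 and 18 stood at 0.48 and 0.42, and arrays 13 and 16r of the same group at -0.35 and -0.30. WT arrays 4 and 2 stood at 0.16 and 0.23, and arrays 6 and 3 both at -0.34. In the PGE2 group arrays 20, 23r and 24r stood at 0.39, 0.24 and 0.39, and array 21r at -0.20. The KO arrays 7, 11, 12r and 8 stood at -0.09, -0.16, -0.34 and -0.42. Array 18 had 33 of 34 members above the mean of its NS398 group and array 13 had 2. The meaning of the suffix r is not given in the labels, and arrays with it lay on both sides.

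Other sets of probes followed these arrays to different degrees. Of the 485 other probes with a mean over 5000 in experiment 2, a threshold chosen after the data were seen, the median distance ran only from -0.11 to 0.06 over the 16 arrays. Ribosome biogenesis factors, which process rRNA and assemble the subunits, stood at -0.10 and -0.09 in NS398 arrays 17 and 18, where the members were highest. In NS398 arrays 13 and 16r they stood at -0.17 and -0.08. In WT arrays 4 and 2 these factors stood at 0.04 and 0.00, against -0.06 and -0.16 in arrays 6 and 3. With PGE2 they stood at 0.21, 0.19 and 0.31 in arrays 20, 23r and 24r and at 0.17 in array 21r. In KO arrays 7, 11, 12r and 8 they stood at -0.12, -0.07, -0.02 and -0.11. Osteoclast markers ran the other way in the NS398, WT and PGE2 groups but not in the KO group. They stood at -0.37 and -0.31 in NS398 arrays 17 and 18 against -0.03 and 0.04 in arrays 13 and 16r. In WT arrays 4 and 2 they stood at 0.03 and -0.04, against 0.21 and 0.23 in arrays 6 and 3. With PGE2 they stood at -0.21, -0.15 and -0.13 in arrays 20, 23r and 24r and at 0.15 in array 21r. In KO arrays 7 and 11, where the members were less low, they stood at 0.15 and 0.17, against 0.06 and 0.03 in arrays 12r and 8. Polymerase I genes stood with the members in the NS398 group, at 0.13 and 0.20 in arrays 17 and 18 and -0.13 and -0.30 in arrays 13 and 16r. In the WT group they did not, at -0.06 and -0.13 in arrays 4 and 2 and 0.01 and -0.07 in arrays 6 and 3. Other genes with TOP mRNAs ran opposite to the members in those WT arrays, at -0.33 and -0.31 against 0.14 and 0.07. In the NS398 group these genes stood at 0.07 and 0.23 in arrays 17 and 18 and -0.09 and -0.03 in arrays 13 and 16r. With PGE2 they stood at -0.26, -0.02, -0.08 and -0.04 in arrays 20, 23r, 24r and 21r. In KO arrays 7, 11, 12r and 8 they stood at 0.00, 0.14, 0.08 and 0.36. Polymerase I genes stood at 0.36, 0.19, 0.18 and 0.14 in the same PGE2 arrays. In the KO arrays, in that order, they stood at -0.09, -0.09, -0.27 and -0.12. What separates the arrays within a group was not tested, and the day 3 results are given with single arrays left out where that changes them.

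**Figure D2:**
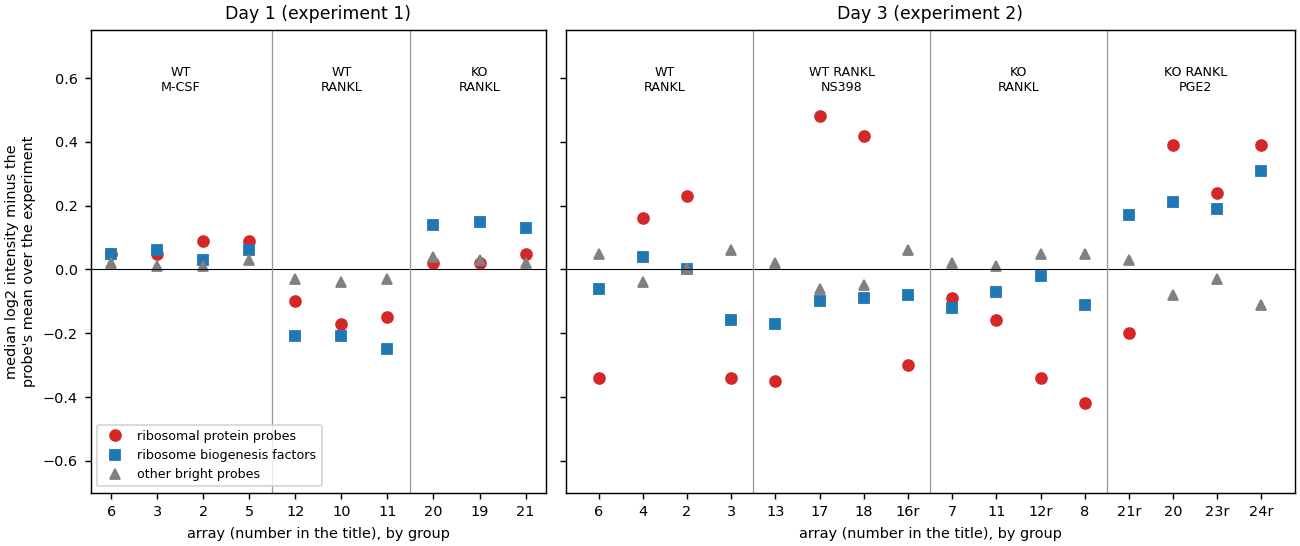
Median log2 intensity of 3 sets of probes in each array, less each probe's mean over its experiment: the 34 ribosomal protein probes (circles), ribosome biogenesis factors (squares) and other bright probes (triangles). On day 3 the circles spread from -0.42 to 0.48 and arrays of one group lie on both sides of 0, except in KO cells, while the triangles stay between -0.11 and 0.06.

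The first comparison asked how RANKL changed WT cells within 1 day. With RANKL, 17 of the 34 member probes fell and 3 rose, and the median log2 change of the members was -0.22, against -0.10 for the other named probes. Of the other named probes 41.4% were called lower and 34.5% higher, so the share of members called lower (50%) was near the background and the share called higher (8.82%) was below it. Falls were found in both subunits, in 10 of 20 large and 7 of 14 small subunit probes, and the 3 rises were all in large subunit genes. Most falls were small. A call here means an adjusted p under 0.05 in limma with Benjamini-Hochberg adjustment over all 17211 probes kept.

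The largest fall was that of Rpl29, a large subunit protein also described as a heparin-binding protein. Its probe A read 2581, 2969, 2925 and 3123 in the 4 arrays with M-CSF alone and 278, 255 and 228 in the 3 with RANKL. The groups were far apart, at 2900 ± 229 (SD, n = 4) and 254 ± 24.6 (SD, n = 3), and the change was -3.52 ± 0.10 (SE) in log2 (limma adjusted p = 7.3e-17). Probe B of the same gene read 16396, 13596, 14538 and 14719 with M-CSF alone and 6233, 7932 and 8464 with RANKL. It also fell, by 0.98 on the log2 scale (SE 0.11, limma adjusted p = 1.8e-07). The probes of Rpl29 thus shared a direction and differed by 2.53 in size. With RANKL probe A was only just above background by the authors' detection p-value (0.0376), so the size of its fall and of this gap is limited by the background. Whether they read different transcripts was not tested, and no probe sequence was used here.

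Rpl3l rose. It read 387, 372, 342 and 425 with M-CSF alone and 665, 765 and 731 with RANKL, with no overlap. The means were 382 ± 34.8 (SD, n = 4) and 720 ± 50.9 (SD, n = 3), and the log2 change was 0.92 ± 0.10 (SE) (limma adjusted p = 9.8e-08). Rpl13a, which in human monocytic cells can leave the ribosome to silence inflammatory mRNAs, read 2568, 3787, 3557 and 3375 with M-CSF alone and 5017, 4514 and 4344 with RANKL. All 3 RANKL arrays were higher, and the log2 change was 0.49 (limma adjusted p = 0.00213). Rpl24, a protein that joins the large subunit late in its assembly, read 22015, 26703, 25002 and 24781 with M-CSF alone and 37225, 32794 and 32960 with RANKL. It too rose without overlap, by 0.48 on the log2 scale (limma adjusted p = 2.1e-04).

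Among the probes that fell, Rpl31 probe A read 2735, 3209, 2690 and 3110 with M-CSF alone and 2087, 1765 and 1935 with RANKL, a log2 change of -0.61 (limma adjusted p = 2.0e-05). Rpl31 lies near the exit of the tunnel through which new chains leave the ribosome. Its probe B, at 53642 against 64540, fell by 0.27 (limma adjusted p = 0.0104). Rpl12, at the base of the stalk that binds translation factors, read 37225, 41979, 41152 and 37628 with M-CSF alone and 27295, 25988 and 27018 with RANKL. The groups did not overlap, and the log2 change was -0.56 (limma adjusted p = 2.8e-05).

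Rpl23 probe B read 69263, 66372, 67016 and 64808 with M-CSF alone and 47194, 48364 and 41772 with RANKL, and fell by 0.55 (limma adjusted p = 1.9e-05). Probe A of Rpl23, which can also bind the p53 regulator Mdm2, had a log2 change of -0.17 and was not called (limma adjusted p = 0.101). Rpl35a, mutated in some people with Diamond-Blackfan anaemia, read 43642, 39027, 46879 and 47944 with M-CSF alone and 29068, 34004 and 34228 with RANKL. Every RANKL array was below every M-CSF array, and the log2 change was -0.45 (limma adjusted p = 6.2e-04). Rps4x, the X-linked S4 protein of the small subunit, read 52559, 47944, 53271 and 53874 with M-CSF alone and 40159, 41442 and 39027 with RANKL. It fell by 0.37 (limma adjusted p = 0.00129), again without overlap.

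The other 9 probes that fell changed by -0.33 to -0.23. Among them were Rps24 probe B, Rps21, Rpl5, Rpl28, both probes of Rps3, Rps3a1 and Rpl22. The arrays of the groups overlapped for Rps3a1 and Rps3 probe A. Rps24 probe A, far dimmer than probe B, had a log2 change of 0.03 (limma adjusted p = 0.882) where probe B fell by 0.31 (limma adjusted p = 0.00443). Outside the rule, Rplp0, the core protein of the stalk, rose by 0.29 (limma adjusted p = 0.0128), and Fau, whose product includes the small subunit protein S30, had a log2 change of -0.20 (limma adjusted p = 0.0869).

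Genes that make or regulate ribosomes were counted from lists. Of 59 measured ribosome biogenesis factors 34 fell and 7 rose with RANKL, with a median log2 change of -0.28. Tsr1, needed to mature the small subunit, fell from 712 to 411 (log2 change -0.79, limma adjusted p = 1.5e-06), Pwp1 from 441 to 246 (log2 change -0.83) and Gar1, of the complex that makes pseudouridine in rRNA, from 3617 to 2218 (log2 change -0.71). Eif6, which keeps the subunits apart, rose from 9945 to 15936 (log2 change 0.68, limma adjusted p = 3.6e-06). Of 5 genes of RNA polymerase I and rDNA transcription 4 fell, among them Tcof1 (log2 change -0.70), Polr1a (log2 change -0.59) and Ubtf (log2 change -0.42), and Polr1d rose (log2 change 0.50). Of 8 other genes with TOP mRNAs 2 rose, Naca (log2 change 0.58) and Pabpc1 (log2 change 0.26), and Nap1l1 fell (log2 change -0.62), with a median of 0.02.

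Of 15 genes of Myc and mTOR control 4 rose and 9 fell. Ddit4, an inhibitor of mTOR complex 1, rose from 259 to 2578 (log2 change 3.32, limma adjusted p = 5.5e-16), and Sesn1, another inhibitor of that complex, fell from 5262 to 737 (log2 change -2.81). Eif4ebp1, a repressor of cap-dependent translation that mTOR inactivates, rose from 5214 to 8932 (log2 change 0.78), and Mxd4, which opposes Myc, fell from 979 to 460 (log2 change -1.10). Of 10 listed S6 kinase genes, left out of the members, only 4 were measured: Rps6ka1, Rps6ka2, Rps6ka3 and Rps6ka4. Of these Rps6ka4 rose (log2 change 1.39) and Rps6ka3 (log2 change -0.88) and Rps6ka2 (log2 change -0.54) fell.

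All 14 measured genes of dividing cells fell, with a median log2 change of -1.33. Their summed intensity was 21764 to 24629 with M-CSF alone and 9040 to 9837 with RANKL. The survivin gene Birc5 went from 1758 to 430 (log2 change -2.03, limma adjusted p = 1.1e-12), Tk1 from 1704 to 377 (log2 change -2.17), Mcm6 from 2656 to 769 (log2 change -1.80) and Ccnb1 from 1337 to 402 (log2 change -1.73). Their part in the fall of the ribosomal protein probes was not tested.

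The second comparison asked how KO cells differed from WT cells, both with RANKL, on day 1. It shares the 3 WT arrays with the first, so opposite signs in the pair are not independent. In KO cells 14 of the 34 member probes were higher and 3 lower, and the median log2 difference was 0.22, against 0.09 for the other named probes. Of the other named probes 39.1% were called higher and 31.3% lower, so the share of members called higher (41.2%) was near the background and the share called lower (8.82%) below it. By subunit, 8 of 20 large and 6 of 14 small subunit probes were higher, and the 3 lower probes were large subunit genes. Leaving out 1 array at a time gave 8 to 11 higher, and cyclic loess in place of the deposited scaling gave 6.

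Rpl3l showed the largest difference. It read 376, 368 and 322 in KO and 665, 765 and 731 in WT arrays, with no overlap, and was lower in KO by -1.02 ± 0.10 (SE) as a log2 difference (limma adjusted p = 8.1e-08). The KO mean of 355 ± 29.4 (SD, n = 3) lay by the 382 of WT cells with M-CSF alone, from which it differed by -0.10 (limma adjusted p = 0.57). Rpl13a read 3022, 2740 and 3459 in KO and 5017, 4514 and 4344 in WT arrays, a log2 difference of -0.59 (limma adjusted p = 8.5e-04). Rpl4, which lines the exit tunnel, read 2437, 2617 and 2145 in KO and 2890, 3052 and 2909 in WT arrays. It was lower by a log2 difference of -0.30 (limma adjusted p = 0.0249), a call that was lost in 3 of 10 alternatives.

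The higher probes differed by 0.26 to 0.36. Rpl12 read 37225, 31147 and 34680 in KO and 27295, 25988 and 27018 in WT arrays, a log2 difference of 0.36 (limma adjusted p = 0.00553). Rps4x read 49457, 53874 and 49967 in KO and 40159, 41442 and 39027 in WT arrays, a log2 difference of 0.35 (limma adjusted p = 0.00453). For both genes every KO array was above every WT array, and the same held for all 14 higher probes. It was also found in members that were not called (21 of 34 in all), and the share of other probes so separated is not given here.

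Rps21, a small protein of the small subunit, read 56337, 56337 and 56798 in KO and 40617, 45428 and 48364 in WT arrays, a log2 difference of 0.34 (limma adjusted p = 0.00618). Rpl28 read 46879, 53271 and 48662 in KO and 44207, 35859 and 38546 in WT arrays, a log2 difference of 0.33 (limma adjusted p = 0.0103). Rpl35a read 39027, 39518 and 42577 in KO and 29068, 34004 and 34228 in WT arrays, a log2 difference of 0.32 (limma adjusted p = 0.0187). The KO arrays of these 3 genes were again above all WT arrays. The calls were lost in 2 of 10 alternatives for Rpl28 and in 3 of 10 for Rpl35a.

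Rpl29 probe B read 9509, 8646 and 10262 in KO and 6233, 7932 and 8464 in WT arrays, and its log2 difference was 0.34 (limma adjusted p = 0.0264). This call was lost in 4 of 10 alternatives, and without WT array 12 the difference was 0.21. Probe A of Rpl29 read 273, 238 and 229 in KO and 278, 255 and 228 in WT arrays, which overlapped (log2 difference -0.04, limma adjusted p = 0.819). In KO cells probe A was not above background by the authors' detection p-value of 0.0501, and in WT cells it was just past that limit at 0.0376. Rps24 again split by probe, with a log2 difference of -0.09 for probe A (limma adjusted p = 0.591) and 0.29 for probe B (limma adjusted p = 0.0138). Rplp0 was lower in KO by -0.26 (limma adjusted p = 0.0387), and Fau differed by 0.05 (limma adjusted p = 0.733).

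**Figure D3:**
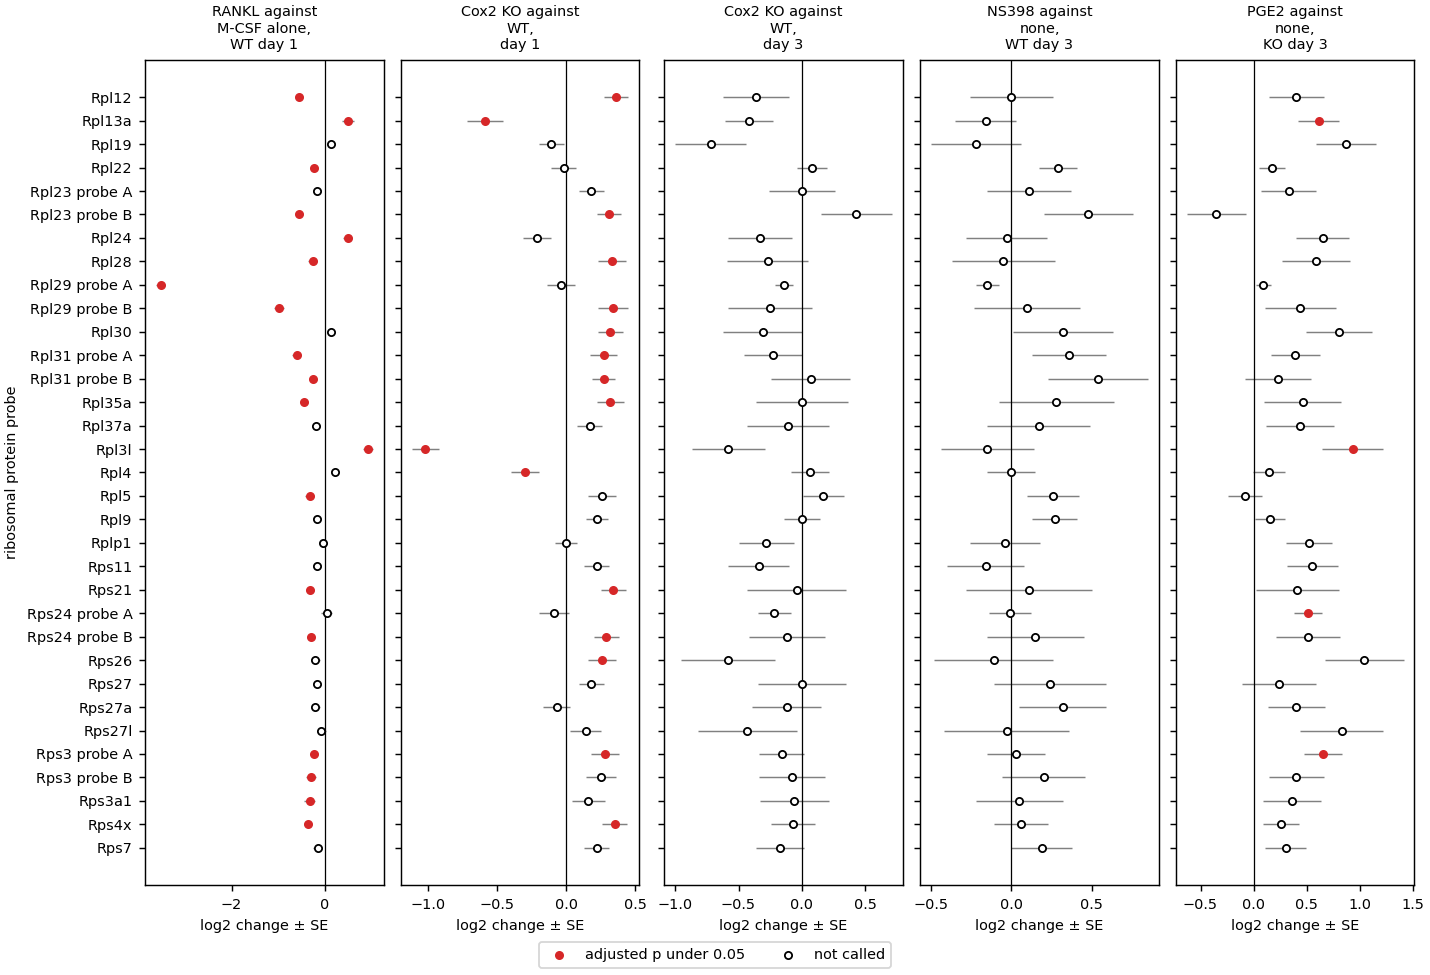
Log2 change of 33 of the 34 ribosomal protein probes, each with its standard error (bars) in the 5 comparisons stated in the series; filled points passed an adjusted p under 0.05 and open points did not. Filled points lie mostly left of 0 for RANKL and mostly right of 0 for KO on day 1, none is filled for KO or NS398 on day 3, and 4 are filled for PGE2, where the bars are wider than on day 1. The 5 horizontal scales differ.

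Ribosome biogenesis factors were higher in KO cells in 40 of 59 and lower in 6, with a median log2 difference of 0.41. Gnl3, a nucleolar GTPase of growing cells, was at 4164 against 2113 (log2 difference 0.99, limma adjusted p = 2.0e-06), Nop58, of the rRNA methylation complex, at 1360 against 775 (log2 difference 0.81) and Pwp1 at 454 against 246 (log2 difference 0.88), while Rrp1b was lower at 733 against 1246 (log2 difference -0.76). Of the 5 polymerase I genes Ubtf (log2 difference 0.45), Polr1a (log2 difference 0.40) and Taf1d (log2 difference 0.29) were higher and Polr1d was lower (log2 difference -0.50). The other genes with TOP mRNAs went differently, with 2 of 8 higher and 4 lower, among them the translation elongation factor Eef2 at 830 against 1938 (log2 difference -1.23, limma adjusted p = 6.3e-08) and Naca (log2 difference -0.55).

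In the Myc and mTOR list 9 of 15 were higher and 1 lower. Ddit4 was at 281 in KO against 2578 in WT cells (log2 difference -3.20, limma adjusted p = 6.6e-15), and Sesn1 at 3372 against 737 (log2 difference 2.19). Rragc, a Rag GTPase that brings mTOR complex 1 to lysosomes, was higher (log2 difference 0.57), as was Mxd4 (log2 difference 0.91). Of the S6 kinase genes Rps6ka4 was lower (log2 difference -1.13) and Rps6ka2 (log2 difference 0.96) and Rps6ka3 (log2 difference 0.69) were higher. Of the 14 genes of dividing cells 5 were higher, led by the replication helicase subunit Mcm6 at 1703 against 769 (log2 difference 1.15), with a median of 0.12.

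Markers of other cells also differed in this comparison. Of 6 measured stromal markers (of 10 listed) 5 were higher and 1 lower in KO cells, with summed intensities of 4111 to 4570 against 2532 to 2702 in WT cells and 1793 to 1902 with M-CSF alone. Of 10 measured neutrophil and granulocyte precursor markers (of 11) 7 were higher and 3 lower, with sums of 44424 to 60159 in KO, 91461 to 92104 in WT and 11250 to 11930 with M-CSF alone. Ltf, a granule protein of neutrophils, was at 4142 in KO against 213 in WT cells (limma adjusted p = 1.8e-17). Lcn2 of the same list went the other way, at 2182 in KO against 8209 in WT cells (limma adjusted p = 3.2e-12). An array intensity has no true zero, so no marker could be read as absent. The part of these markers in the differences of the ribosomal protein probes was not tested.

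The third comparison set KO cells with RANKL against WT cells with M-CSF alone, which differ in both genotype and cytokine, and it shares its arrays with both comparisons above. Here 2 member probes were higher and 5 lower, with a median of -0.04 against 0.01 for the other named probes, of which 14.6% were called higher and 17.3% lower. Rpl29 probe A, with the values given above, was at least 11.8-fold lower in KO cells with RANKL (limma adjusted p = 1.1e-15), and probe B was lower by a log2 difference of -0.65 (limma adjusted p = 1.5e-04). Rpl30 read 4606, 5008 and 4795 in KO cells with RANKL and 3211, 3656, 3598 and 3779 in WT cells with M-CSF alone, with no overlap. Its log2 difference was 0.43 (limma adjusted p = 0.00105).

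Rpl24 was higher in the KO arrays, at 29883, 28126 and 31028 against the M-CSF values given above (log2 difference 0.27, limma adjusted p = 0.0469). Rpl31 probe A, at 2446, 2280 and 2259 in KO, was lower (log2 difference -0.33, limma adjusted p = 0.0172). Rps27a, which is made as a fusion with ubiquitin, read 6495, 5468 and 6530 in KO and 6579, 7778, 7701 and 7961 with M-CSF alone (log2 difference -0.28, limma adjusted p = 0.0443). Rpl22 read 1732, 1637 and 1586 in KO and 1990, 2065, 1870 and 1954 with M-CSF alone (log2 difference -0.25, limma adjusted p = 0.0455). The calls of Rpl24, Rps27a and Rpl22 were lost in 9, 8 and 9 of 11 alternatives, most single arrays left out included, and that of Rpl31 probe A in 3 of 11. Of the biogenesis factors 6 of 59 were higher and 1 lower, and all 14 genes of dividing cells were lower, with a median of -1.15. Stromal markers were higher in 6 of 6 and neutrophil markers in 7 of 10.

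The fourth comparison asked the same of KO and WT cells with RANKL on day 3. None of the 34 member probes was called by limma, and 16.3% of the other named probes were called in either direction. An unadjusted p under 0.05 was found for 2 members (5.88%), against 37.9% of the other named and 18.2% of all kept probes. The median log2 difference was -0.15, against 0.02 for the other named probes, with a median SE of 0.26 for members and 0.13 for the others. With single arrays left out the median ran from -0.25 (without WT array 6) to -0.05 (without WT array 2). The estimates were below 0 for 28 members and ran from -0.72 to 0.43. Their signs are not independent, because the members moved together from array to array. No member separated the arrays of the groups, and the share of other probes that did so is not given here. Rpl19, which had the largest estimate, read 2453, 2178, 2137 and 1690 in KO and 2430, 5467, 4788 and 2242 in WT arrays, of which 4 and 2 were high (log2 difference -0.72 ± 0.28 SE, limma adjusted p = 0.166). Among 58 biogenesis factors kept on day 3, 1 was higher and 1 lower.

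The fifth comparison asked what the Cox2 inhibitor did to WT cells on day 3. No member was called by limma with NS398, and 15.1% of the other named probes were called in either direction. An unadjusted p under 0.05 was found for 2 members (5.88%), against 32.1% of the other named and 16.3% of all kept probes. The median log2 change was 0.11 against 0.01 for the other named probes, and with single arrays left out it ran from -0.05 (without NS398 array 17) to 0.23 (without array 13). Rpl31 probe B had the largest estimate. It read 8129, 15963, 17179 and 7985 with NS398 and 6048, 9641, 10780 and 6414 without, each group holding a pair of high and a pair of low arrays (log2 change 0.54 ± 0.31 SE, limma adjusted p = 0.443). Of the biogenesis factors 2 of 58 were lower and none higher.

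The sixth comparison asked what PGE2 did to KO cells on day 3. With PGE2 4 member probes rose and none fell. The median log2 change was 0.41, with 32 of 34 estimates above 0, against -0.01 for the other named probes. The 34 signs are not independent, because the members moved together from array to array. Of the other named probes 14.5% were called higher and 18.6% lower, so the share of members called higher (11.8%) was near the background. At an unadjusted p under 0.05 there were 11 members (32.4%), against 51.7% of the other named and 25.8% of all kept probes. The large and small subunits had medians of 0.42 and 0.41. The count of 4 was not stable. It was 0 without KO array 8 and 9 without PGE2 array 21r, and the authors' deposited table lists 7.

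Rps24 probe A, of a gene mutated in some people with Diamond-Blackfan anaemia, read 244, 337, 278 and 294 with PGE2 (arrays 21r, 20, 23r and 24r) and 219, 218, 191 and 179 without (arrays 7, 11, 12r and 8). Every PGE2 array was above every other KO array, and the log2 change was 0.51 ± 0.13 (SE) (limma adjusted p = 0.0138). Probe B of Rps24 also had an estimate of 0.51 and was not called (limma adjusted p = 0.318). Rps3 probe A, whose protein lies at the mRNA entry of the small subunit, read 9945, 11090, 11355 and 17757 with PGE2 and 7813, 8076, 8345 and 6983 without. The groups did not overlap and array 24r was the highest (log2 change 0.65 ± 0.18 SE, limma adjusted p = 0.0255). Probe B of Rps3 had an estimate of 0.40 (limma adjusted p = 0.397).

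Rpl3l read 225, 465, 461 and 450 with PGE2 and 200, 206, 190 and 209 without. Array 21r lay just above the KO arrays and the other 3 were over 400, for 0.93 ± 0.29 (SE) as a log2 change (limma adjusted p = 0.0441). In the remaining day 3 groups Rpl3l was split, at 241, 428, 416 and 190 in WT arrays 6, 4, 2 and 3, and 201, 359, 372 and 199 in NS398 arrays 13, 17, 18 and 16r. Rpl13a read 1057, 1574, 1288 and 1442 with PGE2 and 1035, 907, 867 and 695 without, with no overlap (log2 change 0.61 ± 0.19 SE, limma adjusted p = 0.047). The calls of Rpl3l and Rpl13a were lost in 9 and 8 of 13 alternatives, and those of Rps3 probe A and Rps24 probe A in 3 and 1.

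**Figure D4:**
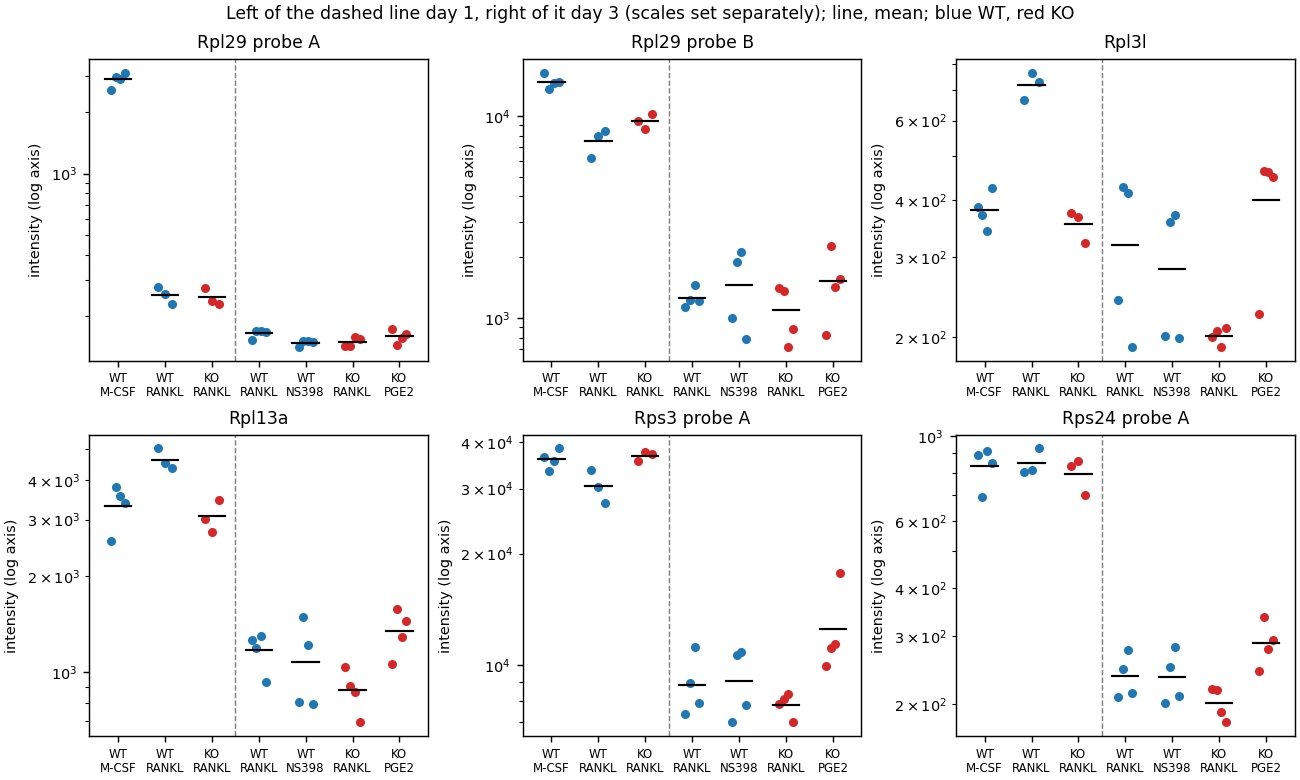
Intensity (log axis) of 6 probes in every array (points) with the group mean (line), day 1 left and day 3 right of the dashed line, WT in blue and KO in red, the 2 days on separate scales. Rpl29 probe A is high only with M-CSF alone among the day 1 groups, Rpl3l and Rpl13a are highest in WT cells with RANKL on day 1, and the 4 probes called for PGE2 are higher with it than in KO cells without it.

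Some members with larger estimates did not pass the test. Rps26, at the mRNA exit of the small subunit, read 7446, 17638, 16881 and 19030 with PGE2 and 9306, 7912, 5822 and 5487 without, and array 21r lay among the KO arrays (log2 change 1.04 ± 0.37 SE, limma adjusted p = 0.0729). Rpl19 read 3056, 4307, 3768 and 4335 with PGE2 and 2453, 2178, 2137 and 1690 without, with no overlap (log2 change 0.87 ± 0.28 SE, limma adjusted p = 0.0516). Rps27l, a paralog known as a p53 target, had an estimate of 0.83 ± 0.39 SE (limma adjusted p = 0.192). Rps27, its close relative, had 0.24 ± 0.35 SE (limma adjusted p = 0.755), and neither was called in any of the 8 contrasts. Rpl23 split by probe, with 0.33 for probe A (limma adjusted p = 0.485) and -0.35 for probe B (limma adjusted p = 0.512). These were chosen after their values were seen, Rpl23 apart.

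Biogenesis factors rose with PGE2 in 18 of 58 and fell in none, with a median of 0.28. Eif6 went from 5214 to 8598 (log2 change 0.72, limma adjusted p = 8.3e-05), Nop2, an rRNA methyltransferase, from 327 to 561 (log2 change 0.77), Mrto4 from 392 to 635 (log2 change 0.70) and Wdr74 from 670 to 1026 (log2 change 0.61). Unlike the member probes, these factors stood above their experiment mean in all 4 PGE2 arrays, at medians of 0.17 to 0.31, array 21r included. Ubtf, an activator of polymerase I, rose from 593 to 981 (log2 change 0.72, limma adjusted p = 7.1e-04) and was the only one of 5 polymerase I genes called. Of 8 other genes with TOP mRNAs Eef1d rose (log2 change 0.60) and Eef2 (log2 change -1.21) and Hnrnpa1 (log2 change -0.49) fell.

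In the Myc and mTOR list 2 of 15 rose and 3 fell. Ddit4 rose from 146 to 661 (log2 change 2.09, limma adjusted p = 5.5e-05), Sesn1 fell from 847 to 307 (log2 change -1.48), and Rragc (log2 change -0.70) and Myc (log2 change -0.47) also fell. Of the S6 kinase genes Rps6ka4 rose (log2 change 1.21) and Rps6ka1 fell (log2 change -0.93). Of 14 genes of dividing cells 4 rose and 2 fell, with a median of 0.08. Stromal markers rose in 4 of 6, with sums of 1538 to 1817 against 919 to 1025, and neutrophil markers in 6 of 10, with sums of 5533 to 9900 against 1513 to 1740. The part of these markers in the rise of the ribosomal protein probes was not tested.

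Both further contrasts on day 3 share arrays with those above. For KO cells with PGE2 against WT cells no member was called by limma, and 3.11% of the other named probes were called. At an unadjusted p under 0.05 there were 2 members (5.88%), against 20.9% of the other named and 10.9% of all kept probes. The median was 0.26 against 0.01 for the others, with 33 of 34 estimates above 0. For KO cells against WT cells with NS398 no member was called by limma, and 1.92% of the other named probes were called. At an unadjusted p under 0.05 there was 1 member (2.94%), against 15% of the other named and 8.31% of all kept probes. The median was -0.27 against 0.02, with 32 of 34 estimates below 0. In both contrasts the 34 signs are not independent, because the members moved together from array to array. The shift of the median in the 2 contrasts moved with single arrays, from 0.15 to 0.44 and from -0.43 to -0.13.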

How the data were processed

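Illumina bead arrays of 26 samples were analysed, 10 in experiment 1 and 16 in experiment 2. The authors deposited linear intensity values, and the submitters' processing notes name GenomeStudio. Arrays of an experiment share the minimum, the upper quartile and the maximum, so the values were read as quantile normalized by experiment. Per the file headers, the authors' deposited comparison tables hold each group's mean intensity and detection p-value, a ratio of means, and the DiffScore, a signed score of change. Names come from these tables alone. A probe was called not above background at a group detection p-value of 0.05 or higher.

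Values were taken to log2. Probes above the 40th percentile of an array in at least 3 (experiment 1) or 4 arrays (experiment 2) were kept, 17211 and 18961. The arrays of an experiment entered 1 model of lmFit and eBayes (limma 3.58.1 under R 4.3.3), with a mean per group and no covariates, two-sided, with Benjamini-Hochberg adjustment over its kept probes. The fit was tested on simulated data. Old symbols were updated through the RefSeq gene table of GRCm38.p6. Probes of a gene were kept apart among members, and other lists used the brightest probe of a gene.

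Named were up to 6 called rises and 6 called falls per comparison by size, 1 probe per gene. Further names came from genes whose probes went opposite ways or differed by over 0.5, and from up to 4 called genes of each list by p-value. Not all of these further genes are given. Called list genes for KO and for NS398 against WT on day 3 are among those left unnamed, as are some probe pairs. The members and lists were chosen with earlier results of these data known. The result of 1 member gene is counted but not reported here. The B cell and erythroid marker lists have no named probe, and of 6 T and NK cell markers 1 was measured. Alternatives were no filter, cyclic loess, an intensity trend with robust variance, only the groups compared, 1 probe per gene, the suffix r as a covariate and leaving out each array.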

Additional observations from a re-analysis of the deposited data

Results flagged for a closer look

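In 5 of 95 checks over the 5 groups of 4 arrays a single array lay far from the others of its group, by the gap to the nearest array as a share of the group's range, past Dixon's 95% limit for 4 arrays, which chance passes in about 1 of 20 groups. With PGE2, array 21r was the low one for 3 probes, with shares of 0.988 for Rpl12 (5301 against 8991 to 9051 in the other 3), 0.956 for Rpl3l (225 against 450 to 465) and 0.920 for Rpl31 probe A (549 against 690 to 704). In WT cells on day 3, Rpl29 probe A had a share of 0.920, with array 6 at 153 and the others at 167 to 168. This probe was dim on day 3, with a mean of 155 against a median of 148 over all probes, and the difference in intensity is small. In KO cells on day 3, Rpl30 had a share of 0.944, with array 7 at 688 and the others at 559 to 565.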

How the results depend on the processing

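No paired analysis was possible because the groups compared share no replicate numbers. No named member reversed its direction under the alternatives run, while the uncalled NS398 median of 0.11 went to -0.05 without array 17. For KO against WT on day 1 the 14 probes called higher became 6 with cyclic loess and 8 to 11 with single arrays left out, and the members' median moved from 0.22 to 0.16 with cyclic loess. For RANKL cyclic loess moved the median from -0.22 to -0.17, and the counts higher and lower ran from 3 to 4 and from 13 to 16 with single arrays left out. For KO with RANKL against M-CSF alone the 2 higher probes became 1 with no filter, with cyclic loess and with only the groups compared (1 to 2 with arrays left out), and the 5 lower became 3 with no filter, only the groups compared or 1 probe per gene (2 to 4). For PGE2 the 4 higher probes became 2 with no filter, 8 with only the groups compared, 8 with the suffix r as a covariate and 7 in the authors' deposited table, and ran from 0 (without KO array 8) to 9 (without PGE2 array 21r). The KO calls lower on day 1 ran from 2 to 3. The causes were not tested. Of the named members' values, 103 kept their side of the threshold under settings other than leaving out an array and 13 lost the call, and with an array left out 142 kept it and 49 lost it. The number of arrays, the wide spread on day 3 and the bright end of the scale on day 1 limit what could be detected.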
